A study of Mus musculus with 6 samples.

Results

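Fatty acid desaturases and elongases were represented by 17 of the 45281 probes of an Illumina MouseWG-6 v2.0 bead array. They are all probes whose array name is SCD1, SCD2, ELOVL1, ELOVL4, ELOVL5, ELOVL6, ELOVL7, FADS1, FADS2 or FADS3, 10 of the 30854 names on the array: the stearoyl-CoA desaturases Scd1 and Scd2, the elongases Elovl1, Elovl4, Elovl5, Elovl6 and Elovl7, and the fatty acid desaturases Fads1, Fads2 and Fads3. Of the 17 probes 13, from 9 genes, were bright enough to be tested. Total RNA came from 2 mouse colorectal cancer lines. MC38r is resistant to eicosapentaenoic acid (EPA), with an IC50 6-fold higher after continuous EPA exposure, and MC38 is the EPA-sensitive line. Each line was measured on 3 arrays, and both were grown alike, to 70% confluence in RPMI with 10% foetal calf serum. No genetic change and no treatment at harvest is labelled for either line. The labels do not say whether the arrays of a line came from separate cultures, so p-values measure only the spread between these samples, which may be technical. With 1 line of each kind, what goes with resistance and what else sets these lines apart cannot be told apart.

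Fatty acids are lengthened and desaturated at the endoplasmic reticulum. Scd enzymes place the first double bond into saturated chains and so make the monounsaturated palmitoleate and oleate, while each Elovl enzyme adds a pair of carbons to a class of chains and sets the speed of the elongation cycle. Fads2, Elovl5 and Fads1 act in turn on dietary omega-3 and omega-6 chains, a path on which EPA is a product of Fads1 and a substrate of Elovl5. Many of these genes are known targets of the SREBP factors, and polyunsaturated fatty acids are known to lower SREBP-1 activity in liver.

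Fads3, Fads2 and Fads1 follow one another on mouse chromosome 19 with no other protein-coding gene between them, and Scd3, Scd2, Scd4 and Scd1 form a second such row on chromosome 19. Promoters of 7 member genes were found in RefSeq (GRCm38.p6). Those of Fads2, Elovl6, Elovl5 and Fads3 are printed because Fads2 and Elovl6 were among the most reduced transcripts, Elovl5 stands between the steps of Fads2 and Fads1, and Fads3, the neighbour of Fads2, had the opposite direction. Each sequence is the 250 bases before the start site, 5′ to 3′ on the strand of the gene. Capitals mark matches on either strand to TCACNCCAC (sterol response element), CCAAT (NF-Y box), GGGCGG (GC box) or CACGTG (E-box).
Fads2, chr19:10101504-10101753, minus strand: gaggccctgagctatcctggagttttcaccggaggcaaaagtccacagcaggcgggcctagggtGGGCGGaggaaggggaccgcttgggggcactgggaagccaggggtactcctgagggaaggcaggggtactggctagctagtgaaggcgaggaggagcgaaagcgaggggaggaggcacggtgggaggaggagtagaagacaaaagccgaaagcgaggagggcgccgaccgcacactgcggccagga
Elovl6, chr3:129532136-129532385, plus strand: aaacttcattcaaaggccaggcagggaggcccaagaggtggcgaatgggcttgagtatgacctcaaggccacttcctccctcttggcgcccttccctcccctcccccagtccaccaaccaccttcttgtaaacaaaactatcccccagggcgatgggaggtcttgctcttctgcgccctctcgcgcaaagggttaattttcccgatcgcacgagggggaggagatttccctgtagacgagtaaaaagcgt
Elovl5, chr9:77917115-77917364, plus strand: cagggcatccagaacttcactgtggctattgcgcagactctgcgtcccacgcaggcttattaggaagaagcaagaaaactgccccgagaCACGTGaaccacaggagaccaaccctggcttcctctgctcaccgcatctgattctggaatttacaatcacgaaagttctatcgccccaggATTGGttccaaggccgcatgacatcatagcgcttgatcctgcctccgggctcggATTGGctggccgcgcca
Fads3, chr19:10041298-10041547, plus strand: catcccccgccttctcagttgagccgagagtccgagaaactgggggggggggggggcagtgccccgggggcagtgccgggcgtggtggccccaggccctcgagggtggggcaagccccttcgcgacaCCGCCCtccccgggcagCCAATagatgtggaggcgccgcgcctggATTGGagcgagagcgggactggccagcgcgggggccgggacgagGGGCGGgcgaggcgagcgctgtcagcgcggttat

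None of the 8 promoter windows of the 7 genes held TCACNCCAC, which was present in 1.05% of the 32851 RefSeq windows of this length. That says only that these letters are not in these windows. CCAAT was found in 33.8% of all windows. It occurred in 2 places each in the windows of Elovl5 and Fads3 and in 1 place in an Elovl1 window. GGGCGG was found in 32.7% of all windows and occurred in those of Elovl1, Elovl4, Elovl7, Fads2 and Fads3. In 1 Elovl1 window a GC box on the reverse strand overlaps the CCAAT box. CACGTG, found in 6.02% of all windows, occurred in Elovl5 alone of the 7 genes. The Elovl6 window held none of the motifs.

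A probe counts as above background where its detection p was under 0.01. Signals are normalized values on the log2 scale, and each fold change is between lines for 1 probe. Levels of different probes are not compared with each other, since a bead array gives no level per transcript length. Between 28.97% and 30.52% of all probes were above background on the MC38r arrays and between 28.35% and 30.14% on the MC38 arrays. All arrays lay on 1 chip, MC38r on the last sections and MC38 on the first, so position and line cannot be told apart. Housekeeping control signals, as deposited for each array, were 10270.69 to 10673.36 on the MC38r arrays and 11551.87 to 12857.86 on the MC38 arrays, without overlap. Biotin staining controls (5450.04 to 6170.67 in MC38r and 6240.99 to 7267.81 in MC38), Cy3 hybridization controls (3000.96 to 3184.04 in MC38r and 3263.22 to 3558.49 in MC38) and low-stringency controls (2299.69 to 2434.21 in MC38r and 2495.17 to 2720.05 in MC38) were also lower in MC38r without overlap. Labelling controls (76.67 to 82.40 in MC38r and 78.47 to 80.03 in MC38) and negative controls (81.08 to 84.76 in MC38r and 82.62 to 84.40 in MC38) overlapped between the lines. The part of these controls in the results was not tested. MC38r replicate 1 and MC38 replicate 2 stood apart: their deviations from the means of their lines correlated at 0.62 over the tested probes, a description across probes, and without both arrays the counts of members below were the same. Of 8 epithelial marker genes 6 were above background on no array, and the intestinal factor Cdx2 exceeded background on each MC38r array and no MC38 array; the list summed to 245 to 257 on the linear scale in MC38r and 213 to 223 in MC38. Of 4 adipocyte markers, a cell type rich in Scd1, 3 were above background on no array, and their summed linear signal was 104 to 119 in MC38r and 96.0 to 110 in MC38. Of 6 macrophage markers 5 were above background on no array, with sums of 306 to 318 in MC38r and 322 to 345 in MC38, and Cd68 was 1.56-fold lower (limma adjusted p = 0.0042). Cd68 was above background on 1 of 3 MC38r arrays and met the detection filter by its MC38 arrays alone, so this p adds no support. Of 6 fibroblast markers 3 were detected throughout MC38r and 5 throughout MC38, with sums of 765 to 852 in MC38r and 646 to 711 in MC38. Col3a1 and Pdgfrb were lower by bounds of at least 2.37-fold and at least 1.27-fold. Both passed the detection filter through MC38 alone, so that they had to differ. Their limma adjusted p-values (6.2e-05 and 0.00156) belong to the fitted log2 changes of -1.90 and -0.77. Pdgfra was 2.13-fold and Dcn 1.76-fold higher (limma adjusted p = 0.000202 and 0.00169). Each sum takes all probes of a list, those not above background included. Sums of lists with few detected genes are therefore mostly background and offset. The part of these markers in the results was not tested.

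The comparison asks how the basal levels of these transcripts differ between resistant and sensitive cells. Transcripts of 8 of the 9 tested genes were lower in MC38r and those of Fads3 were higher. Elovl6 was 6.52-fold, Scd2 5.79-fold and Fads2, by its brighter probe, 5.59-fold lower. Scd1 was 2.25-fold lower, Elovl5, Fads1 and the Elovl1 probes were 1.57-fold to 1.75-fold lower, and Elovl4 and the dimmer Fads2 probe give only bounds. Differences between these changes were not tested. By limma, with p-values adjusted over all 13990 tested probes by the Benjamini-Hochberg method, 12 of the 13 member probes were lower and 1 was higher at an adjusted p under 0.05. Over all tested probes 27% were called lower and 28.1% higher, 55.1% in all. Of these 13 probes, the Elovl4 probe and the dimmer Fads2 probe passed the detection filter through MC38 alone, so that they had to differ. Of the 11 that were above background on all 6 arrays 10 were lower and 1 was higher. Fitted alone, the 10936 probes so detected gave 5696 calls, of which 51.6% were higher. Among the 11, 4 (Scd1, Scd2, Elovl6 and the brighter Fads2 probe) were at least 2-fold lower, and the share of such probes in the 10936 was not computed. Of all 13, with Elovl4 and the dimmer Fads2 probe counted as fitted, 6 were at least 2-fold lower, beside 11.7% of all tested probes. The median log2 change of the 13 probes was -0.81, beside 0.03 for all tested probes. In RNA of whole cultures, fewer cells with a transcript and less transcript per cell cannot be told apart.

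**Figure D1:**
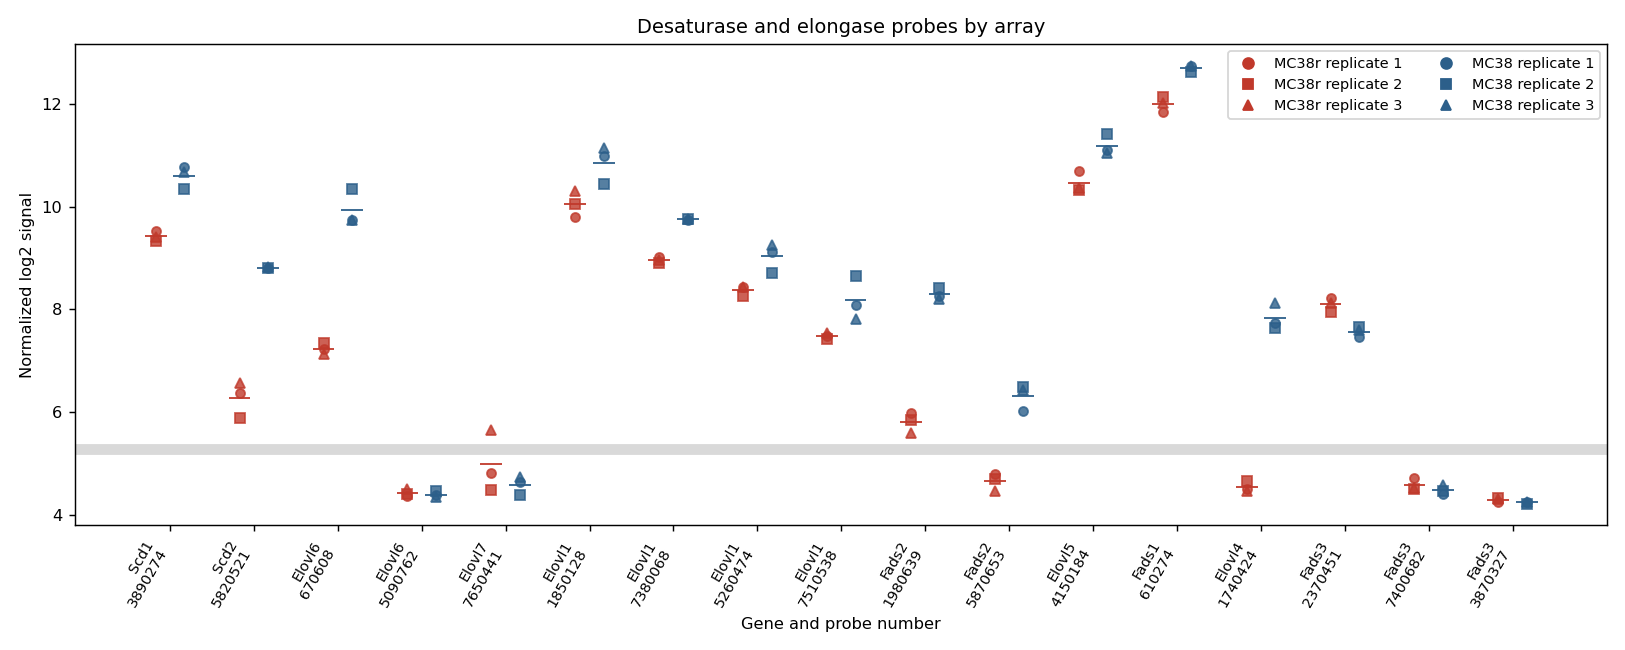
Normalized log2 signal of every desaturase and elongase probe on each array, with MC38r in red to the left of MC38 in blue, symbols for replicates and a short line for the mean of 3 arrays. The grey band spans the lowest signal above background on the 6 arrays (5.19 to 5.36); the lines do not overlap in any of the 13 tested probes, of which 12 are lower in MC38r, 2 of them tested through MC38 alone, beside 29.7% of all tested probes with every MC38r array lower and 31.8% with every MC38r array higher.

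Scd1, the main stearoyl-CoA desaturase of liver and fat, had log2 signals of 9.53, 9.33 and 9.40 in MC38r, against 10.77, 10.35 and 10.67 in MC38. All 3 MC38r arrays were below all 3 MC38 arrays, as 29.7% of all tested probes were. Scd1 was 2.25-fold lower in MC38r (log2 change -1.17, SE 0.15, limma adjusted p = 0.000146).

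Scd2, the stearoyl-CoA desaturase best known from brain and from early life, had log2 signals of 6.37, 5.89 and 6.57 in MC38r, against 8.81, 8.81 and 8.82 in MC38. The MC38 arrays were nearly identical, and the MC38r arrays spread more widely, with replicate 2 the lowest. Scd2 was 5.79-fold lower (log2 change -2.53, SE 0.18, limma adjusted p = 3e-06). Both tested desaturases that make monounsaturated chains were thus lower in MC38r. The difference between the changes of Scd1 and Scd2 was not tested. The other mouse paralogs, Scd3 with 1 probe and Scd4 with 2, were above background on no array.

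Elovl6, which extends palmitate and palmitoleate, had log2 signals of 7.23, 7.35 and 7.13 in MC38r, against 9.74, 10.35 and 9.73 in MC38. The MC38r arrays lay close together, and MC38 replicate 2 stood above the other MC38 arrays. Elovl6 was 6.52-fold lower (log2 change -2.71, SE 0.18, limma adjusted p = 2.3e-06), or 5.65-fold lower without MC38r replicate 1 and MC38 replicate 2. Its second probe was above background on no array, with 4.37 to 4.51 in MC38r and 4.35 to 4.46 in MC38, so the Elovl6 result rests on 1 probe.

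Elovl1, which makes very long saturated and monounsaturated chains for sphingolipids, was read by 4 probes, and all were lower in MC38r. Probe 1850128 had log2 signals of 9.79, 10.05 and 10.30 in MC38r, against 10.99, 10.45 and 11.14 in MC38, a 1.75-fold difference (SE 0.21 on the log2 scale, limma adjusted p = 0.0083). Probe 7380068 had 9.02, 8.90 and 8.97 in MC38r, against 9.74, 9.77 and 9.76 in MC38. It was the steadiest of the 4 and gave nearly the same 1.73-fold difference (SE 0.12 on the log2 scale, limma adjusted p = 0.000428). The remaining probes were 1.57-fold lower (probe 5260474, limma adjusted p = 0.00782) and 1.64-fold lower (probe 7510538, limma adjusted p = 0.0141).

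The arrays of MC38 did not move together over the Elovl1 probes. MC38 replicate 2 lay 0.41 below the mean of its line for probe 1850128 and 0.31 below it for probe 5260474. For probe 7510538 it lay 0.46 above that mean, and for probe 7380068 only 0.01 above it. With that array and MC38r replicate 1 left out, the log2 changes were -0.89 for probe 1850128, -0.83 for probe 5260474, -0.81 for probe 7380068 and -0.48 for probe 7510538. Which Elovl1 transcripts each probe reads is not given in the sources used here.

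**Figure D2:**
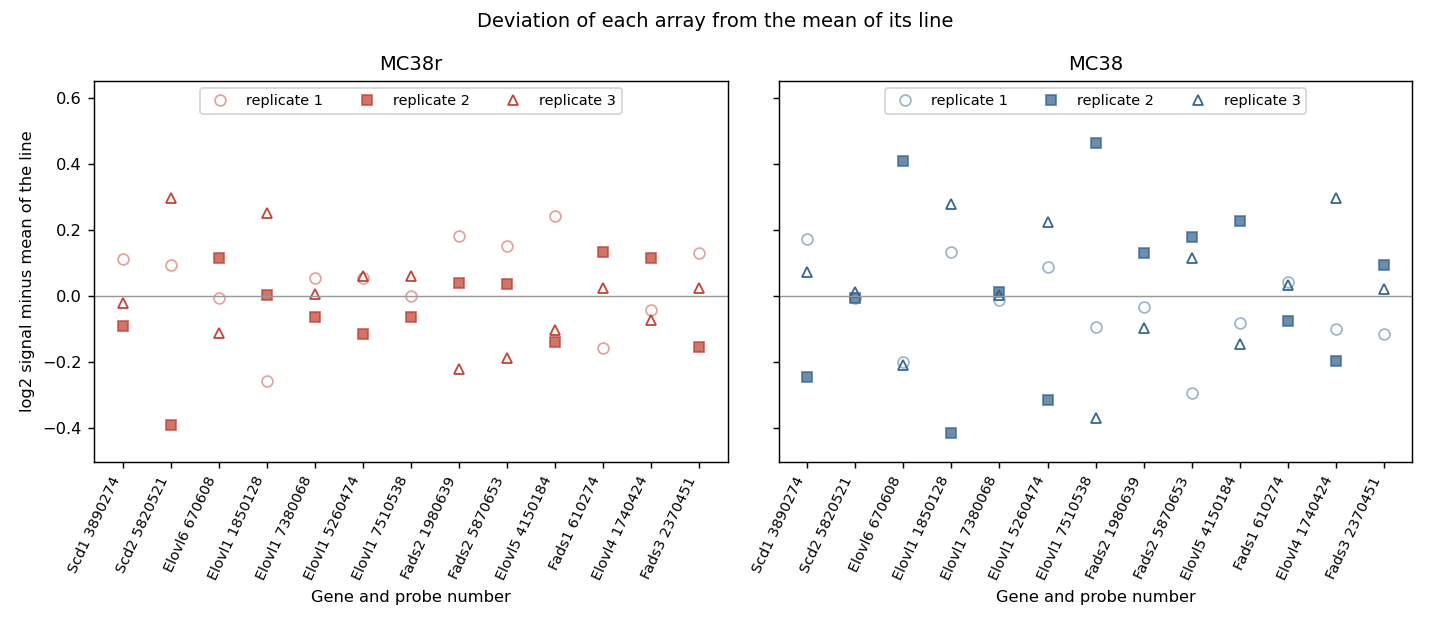
Deviation of each array from the mean of its line, in log2 units, for the 13 tested probes, with MC38r on the left and MC38 on the right. MC38 replicate 2 is the farthest MC38 array for 8 of the 13 probes and MC38r replicate 2 the farthest MC38r array for 7, and the sign of MC38 replicate 2 differs between Elovl1 probes.

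Elovl7, an elongase of saturated chains, was not tested. Its probe was above background on 1 of 6 arrays, with log2 signals of 4.82, 4.49 and 5.65 in MC38r and 4.64, 4.39 and 4.75 in MC38. MC38r replicate 3 alone exceeded background. Elovl3, an elongase known from brown fat and skin, has 2 probes, and neither was above background on any array.

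Fads2, the desaturase that takes the first step on linoleate and alpha-linolenate, had log2 signals of 5.99, 5.85 and 5.59 in MC38r, against 8.26, 8.42 and 8.20 in MC38. The MC38r arrays lay just above the lowest detectable signal. By this probe Fads2 was 5.59-fold lower (log2 change -2.48, SE 0.15, limma adjusted p = 9.5e-07). A dimmer Fads2 probe had 4.81, 4.69 and 4.47 in MC38r, against 6.02, 6.49 and 6.43 in MC38. It was not above background on any MC38r array, so its difference is a bound of at least 2.11-fold. That bound was computed against the lowest signal above background on each array. The limma adjusted p of 3.1e-05 belongs to the fitted log2 change of -1.66. With an offset of 50 in place of 16 the bound is at least 1.59-fold. Having been tested through MC38 alone, this probe adds no support to the brighter one.

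Elovl5, which lengthens the product of Fads2 and also EPA, had log2 signals of 10.70, 10.32 and 10.36 in MC38r, against 11.10, 11.41 and 11.04 in MC38. The lines did not overlap, and MC38r replicate 1 was the MC38r array nearest to MC38. Elovl5 was 1.65-fold lower (log2 change -0.72, SE 0.16, limma adjusted p = 0.0042). Fads1, which forms EPA and arachidonate, had 11.84, 12.13 and 12.03 in MC38r, against 12.74, 12.62 and 12.73 in MC38. It was 1.62-fold lower (log2 change -0.69, SE 0.13, limma adjusted p = 0.00172). Along the polyunsaturated path all 3 genes were thus lower, and the difference of the change of Fads2 from those of Elovl5 and Fads1 was not tested. Elovl2, which carries chains on towards docosahexaenoate, has 1 probe, and it was above background on no array.

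Elovl4, known for ultra-long chains in retina, skin and brain, had log2 signals of 4.50, 4.66 and 4.47 in MC38r, against 7.73, 7.63 and 8.12 in MC38. It was above background on every MC38 array and on no MC38r array. That pattern was held by 659 probes, 1.46% of all 45281, and all of them are among the 13990 tested. The difference is a bound of at least 6.01-fold with the offset of 16 added to the signals, and at least 3.64-fold with an offset of 50. The limma adjusted p of 2.4e-07 belongs to the fitted log2 change of -3.29. The probe passed the detection filter through MC38 alone and had to differ, so this p adds no support.

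Fads3, a relative of Fads1 and Fads2 tied to desaturation of sphingoid bases, was the exception in direction. Its log2 signals were 8.23, 7.94 and 8.12 in MC38r, against 7.46, 7.66 and 7.59 in MC38. All 3 MC38r arrays were above all 3 MC38 arrays, as 31.8% of all tested probes were. Fads3 was 1.44-fold higher (log2 change 0.53, SE 0.14, limma adjusted p = 0.00873). The remaining Fads3 probes were above background on no array, so this rise also rests on 1 probe. The 3 neighbouring Fads genes therefore did not share a direction.

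**Figure D3:**
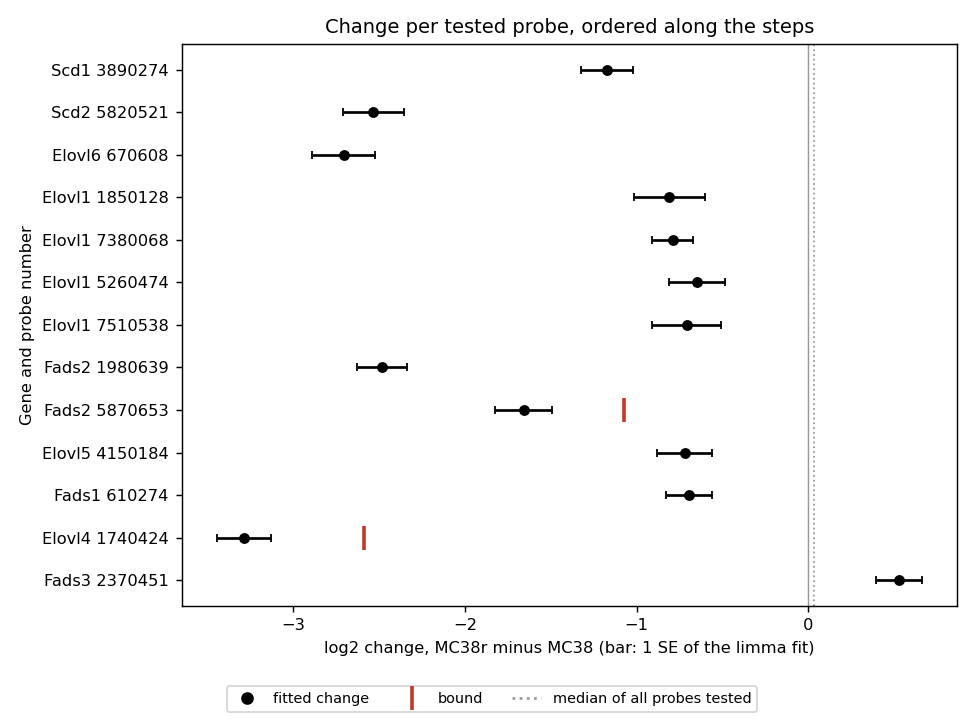
Fitted log2 change of each tested probe, MC38r minus MC38, with bars of 1 SE from limma, ordered along the steps from monounsaturation to Fads3. Red ticks are the bounds for the Elovl4 probe (2.59 lower) and the dimmer Fads2 probe (1.07 lower), and the dotted line is the median of all tested probes at 0.03; Fads3 alone lies to the right of it.

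The signals of the 13 tested probes rest on 23 to 67 beads per probe and array. For the 11 probes above background on all arrays, the spread between arrays of a line was compared with the standard error expected from the beads alone. The coefficient of variation between arrays was the larger in 14 of 22 cases. For Elovl6 it was 8.70% in MC38r and 26.5% in MC38, beside bead errors of 9.31% in MC38r and 5.86% in MC38. For Scd2 it was 28.9% in MC38r and 0.68% in MC38, beside bead errors of 14.8% in MC38r and 10.4% in MC38. The MC38 arrays thus lay closer together for Scd2 than their bead error.

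The authors' deposited table, of the same comparison, holds 6244 genes with an unadjusted p up to 0.05. The array has 30854 names, and 10213 genes were tested here. All 9 tested member genes were listed in that table with the same directions, which is no independent support. There Elovl4 was 7.31-fold, Elovl6 5.31-fold, Scd2 4.83-fold and Fads2 3.86-fold lower in MC38r. By the adjusted p of the authors' deposited table, 3 of the 9 were under 0.05, as were 21.7% of all its genes: Scd2 (0.029), Fads1 (0.0389) and Fads2 (0.0434). Elovl6 had an adjusted p of 0.189 in the authors' deposited table, whose test is not stated. That table gives 1 value per gene where the present fit gives 1 per probe.

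Desaturases and elongases work with partner enzymes and regulators, and 59 genes in 7 lists, further family members included, were compared by the brightest tested probe of each. Of 32 measured genes 17 were lower, 3 were higher and 12 did not pass, with a median log2 change of -0.43. The shares of all tested probes, 27% lower and 28.1% higher, stand beside this count and those of the single lists below, several of which are small and close to them. Among partners of the elongation cycle 2 of 5 measured genes were lower and none higher, with a median of -0.22. Tecr, the reductase that closes the cycle, was 1.55-fold lower with all 3 probes lower (log2 signals of 10.94, 10.80 and 10.88 in MC38r against 11.54, 11.50 and 11.47 in MC38, limma adjusted p = 0.00183). The keto-reductase Hsd17b12 was lower by its brightest probe (log2 change -0.58, limma adjusted p = 0.0356), while a dimmer probe of it had a log2 change of 0.37 (adjusted p = 0.0867). Its call was lost without MC38 replicate 2 (-0.35, adjusted p = 0.0644), MC38r replicate 1 (-0.61, adjusted p = 0.0561), MC38r replicate 2 or MC38r replicate 3 (adjusted p up to 0.117). The dehydratases Hacd1 (-0.22, adjusted p = 0.505) and Hacd4 (-0.22, adjusted p = 0.487) did not pass.

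Desaturases draw electrons through cytochrome b5 and its reductases. Of 5 measured genes of this supply 3 were lower and 1 was higher, with a median of -0.43. Cyb5r3, the main b5 reductase, was 1.94-fold lower (limma adjusted p = 0.00565), with all 3 probes lower, and Cyb5a, the microsomal cytochrome b5, was 1.52-fold lower (limma adjusted p = 0.00538). Cyb5r1, a related reductase, had log2 signals of 9.75, 9.80 and 9.69 in MC38r, against 7.70, 7.43 and 7.88 in MC38. It was 4.21-fold higher (limma adjusted p = 3.1e-06) and stood opposite to Cyb5r3. Cyb5b was the remaining gene that was lower, and its call was lost without MC38 replicate 1, MC38 replicate 3, MC38r replicate 2 or MC38r replicate 3 (adjusted p = 0.0919 without MC38 replicate 1). Cyb5r4 had a log2 change of -0.36 and did not pass (adjusted p = 0.0679), although it did without MC38 replicate 3 (-0.47, adjusted p = 0.0404).

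Fatty acid synthesis from acetyl-CoA supplies the palmitate that Elovl6 and Scd enzymes use. The list for it also holds Mcat and Mecr, which belong to fatty acid synthesis in mitochondria. Of 6 measured genes 5 were lower and none higher, with a median of -0.54. The mitochondrial citrate carrier Slc25a1 had log2 signals of 8.16, 8.02 and 7.96 in MC38r, against 9.60, 9.68 and 9.60 in MC38, and was 2.99-fold lower (limma adjusted p = 6.4e-06). Acss2, which makes acetyl-CoA from acetate, was 2.98-fold lower (limma adjusted p = 4.1e-05), and Mid1ip1, an activator of acetyl-CoA carboxylase, 1.49-fold lower (limma adjusted p = 0.00547). The remaining genes that were lower, Acly and the mitochondrial Mcat, each lost the call when any 1 of 4 of the arrays was left out (adjusted p = 0.051 for Acly and 0.0789 for Mcat without MC38 replicate 1). The other tested Mcat probes did not pass (log2 changes -0.35 and -0.32, limma adjusted p = 0.07 and 0.0958). The mitochondrial enoyl reductase Mecr did not pass (log2 change 0.32, adjusted p = 0.233). The 1 probe of the synthase gene Fasn was above background on no array, and no probe carried the names Acaca or Me1.

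Among regulators, 3 of 8 measured SREBP and LXR control genes were lower and 2 higher, with a median of -0.27. Insig1, which holds SREBP in the endoplasmic reticulum and is itself an SREBP target, was 2.55-fold lower (log2 signals of 6.86, 7.25 and 7.23 in MC38r against 8.69, 8.24 and 8.47 in MC38, limma adjusted p = 0.000131), and its other tested probes were 1.37-fold and 3.12-fold lower. Srebf1, which encodes SREBP-1 and is counted among the 3 lower genes, was above background on 1 of 3 MC38r arrays and on all MC38 arrays. It was 2.15-fold lower as fitted (limma adjusted p = 0.000638). Its MC38 arrays alone met the detection filter, and the other MC38r arrays were not above background, so this p adds no support. Srebf2 was 1.81-fold lower by its brightest probe (limma adjusted p = 0.000535) and 3.07-fold lower by another. The genes that were higher are given here after their values were seen. Mbtps2, the second SREBP-cleaving protease, was 1.75-fold higher (limma adjusted p = 0.00302), and the LXR gene Nr1h2 was 1.38-fold higher by its brightest probe (adjusted p = 0.032), a call lost without MC38 replicate 1, MC38 replicate 3, MC38r replicate 1 or MC38r replicate 3 (adjusted p up to 0.107). Another Nr1h2 probe was 1.66-fold higher (limma adjusted p = 0.00237). The escort Scap did not pass (-0.43, adjusted p = 0.314), although it did without MC38 replicate 2 (-0.83, adjusted p = 0.0153). Mbtps1, the first protease, did not pass by its brightest probe (0.21, adjusted p = 0.453), but passed without MC38 replicate 2 (0.48, adjusted p = 0.0263), and its remaining tested probes passed at 0.53 and 0.50. Insig2 likewise did not pass by its brightest probe (-0.10, adjusted p = 0.517), while another of its probes did (-0.51, adjusted p = 0.00977).

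Chain shortening in peroxisomes, the last step towards docosahexaenoate, had 3 of 4 measured genes lower and none higher, with a median of -0.72. The thiolases Acaa1a (2.20-fold, limma adjusted p = 6.5e-05) and Scp2 (1.76-fold, limma adjusted p = 0.000778) and the transporter Abcd3 (1.53-fold, limma adjusted p = 0.00695) were lower, although 1 of 3 tested Scp2 probes had a log2 change of 0.08 (adjusted p = 0.654). The bifunctional enzyme Hsd17b4 did not pass (-0.31, adjusted p = 0.0808), but did without MC38 replicate 2 (-0.39, adjusted p = 0.0303). Of 4 measured genes that make or desaturate ceramide, 1 was lower and none higher, with a median of 0.01. The ceramide synthase Cers5 was 1.81-fold lower (limma adjusted p = 0.000978). The ceramide desaturase Degs1 (0.31, adjusted p = 0.142) and the very-long-chain ceramide synthase Cers2 (0.31, adjusted p = 0.078) did not pass. Of 6 other family members (Elovl2, Elovl3, Scd3, Scd4, Fads6 and Faxdc2), 5 are on the array under these names and none was above background on any array.

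**Figure D4:**
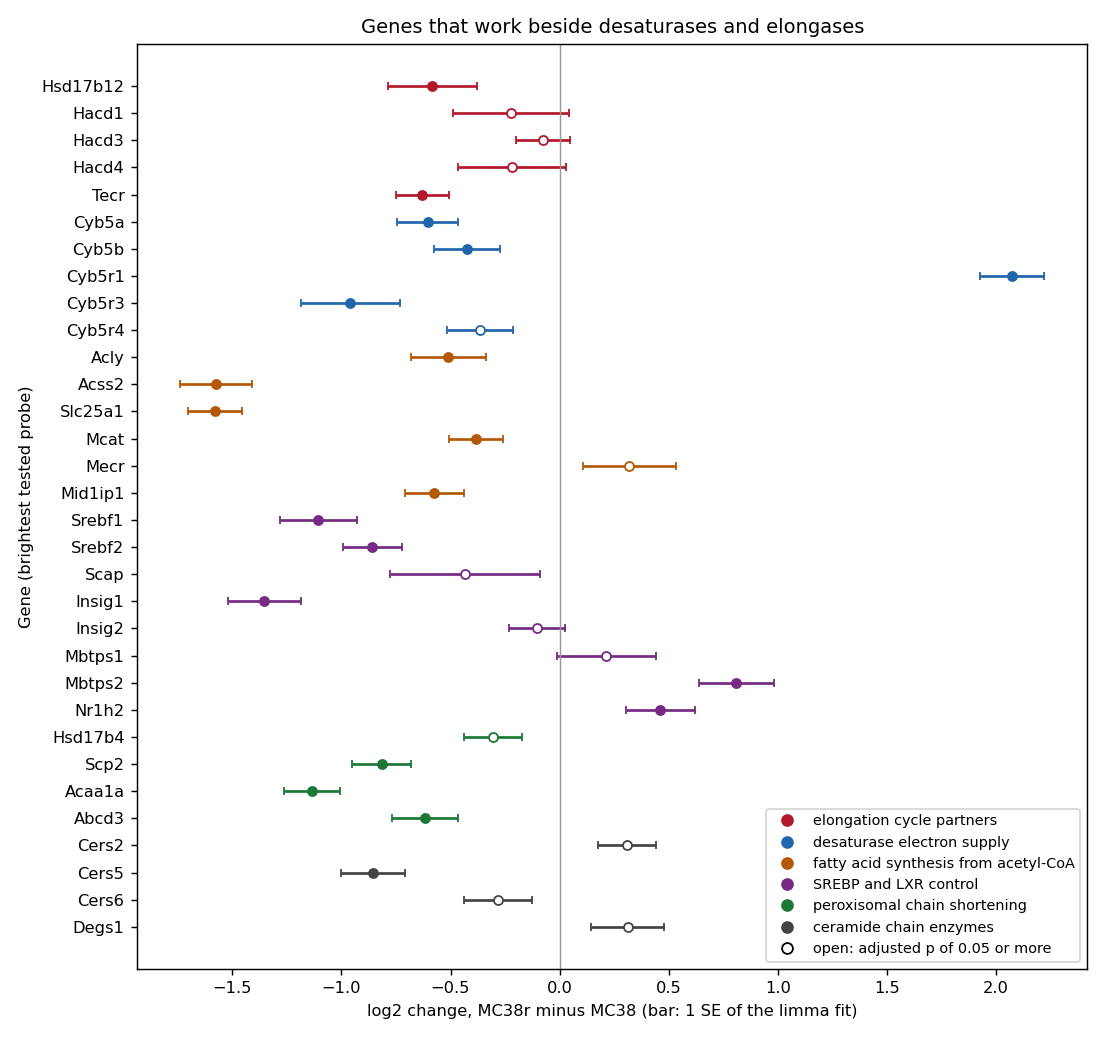
Log2 change of the brightest tested probe of each of 32 partner genes, MC38r minus MC38, with bars of 1 SE from limma and a colour per list; filled points have an adjusted p under 0.05. Cyb5r1, at 2.07, lies farthest to the right, while 17 filled points lie below 0.

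Genes with the most similar profile over the 6 arrays were found by the distance between log2 signals centred on each gene's mean, among 10213 genes read by their brightest tested probe. This is a description over 6 arrays that share 2 lines, and any gene with a change of the same size will be close. Nearest to Elovl6 were Ggt7 (distance 0.23), Psmb5 (0.29) and Mef2c (0.38). Nearest to Fads2 were Ccl2 (0.28), Gcnt1 (0.29) and Cachd1 (0.30). Fads3 lay closest to Dis3l2 (0.06) and Lpar6 (0.07), and Elovl4 closest to Phlda2 (0.22) and Plcg2 (0.23). No other desaturase or elongase was among the 3 nearest genes of any member.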

How the data were processed

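Signals of 6 arrays, 3 per line, were analysed. GenomeStudio 1.9.0 made the probe table, quantile-normalized, per the file headers. The deposited signals are linear intensity, and about 35% are under 0, as after background subtraction. The deposited detection score was read as 1 minus the detection p-value. Bead counts per probe are as deposited, and control intensities are from the deposited sample table. The deposited series values are gene-level intensity. The authors also deposited a ratio or fold of the lines with its log2 value, p-value and adjusted p-value.

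Probe signals were corrected with normexp (nec of limma 3.58.1, R 4.3.3, offset 16), log2-transformed and quantile-normalized. The 13990 probes above background (detection p under 0.01) on 3 or more of the 6 arrays were fitted with lmFit and eBayes on line alone, and adjusted by the Benjamini-Hochberg method at 0.05. Normexp was kept because negative signals have no logarithm. The fit was tested on simulated data with known changes: most changed probes were recovered, but the share of false calls averaged somewhat above the nominal threshold. It also exceeded the limit first set for a single simulated draw, after which the limit was applied to the mean of several draws. Adjusted p-values close to the threshold are therefore less certain than they read. A probe above background on no array of 1 line gives a bound. Of 30854 array names 22024 matched a RefSeq symbol or synonym. The members and lists were chosen with earlier results of these data known. Of each list up to 3 genes past the threshold and 2 not past it were planned to be given, by size. Acly, Mcat, Cyb5b, Mbtps2, Nr1h2 and Insig2 are given beyond that, after their values were seen. Alternatives covered background, normalization, offset, filter, 1 probe per gene, replicate block, variance model, array weights, moderation and the omission of arrays. The omission of MC38r replicate 1 and MC38 replicate 2 together was chosen after seeing the data. The genes nearest in profile to Scd2 are not reported here.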

Additional observations from a re-analysis of the deposited data

Results flagged for a closer look

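The Elovl7 probe, which was left out of the test, was above background on MC38r replicate 3, with a log2 signal of 5.65, higher than on any of the 3 MC38 arrays (4.39 to 4.75). The remaining MC38r arrays had 4.82 and 4.49.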

How the results depend on the processing

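The counts of 12 member probes lower and 1 higher were the same under median scaling, cyclic loess, offset 50, no further background correction, a replicate block, array weights, the trended and robust variance model, and each omission of an array. Fewer were lower with no filter on dim probes (11), unmoderated (10), or, by construction, among probes above background on all arrays (10) and with 1 value per gene (8), and 1 was higher each time. Over 237 values of single member probes under 19 alternatives none changed sign and 234 stayed past the threshold. The exceptions were in Elovl1: probe 7510538 with no filter on dim probes (adjusted p = 0.06) and unmoderated (adjusted p = 0.085), and probe 1850128 unmoderated (adjusted p = 0.0681). The median log2 change was -1.16 with the deposited series values and -1.17 with the brightest probe per gene, since both give 1 value per gene and Elovl1 then counts once; without 1 array it was -1.02 to -0.80. The dimmer Fads2 probe ranged from -1.80 to -0.94 and Elovl4 from -3.38 to -2.19, the smallest changes of both with an offset of 50. Elovl6 ranged from -2.81 to -2.38, Scd2 from -2.68 to -2.11 and the brighter Fads2 probe from -2.57 to -1.95. Of 32 partner genes 20 passed, 15 with the replicate block or unmoderated and 25 with array weights, and without 1 array between 16 and 21. Same-numbered arrays of the 2 lines are paired by no label but that number, and their deviations correlated at -0.46, -0.44 and 0.30. With the replicate block 12 member probes were lower and 1 higher, and 6887 probes were called, against 7713 without it. With 3 arrays per line, precision is limited by their number, and a Fads2 level near the lowest detectable signal in MC38r limits its fold. Scd2 was also dim in MC38r, with log2 signals of 5.89 to 6.57.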
